A study of Mus musculus with 384 samples.

Results

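The 10 genes studied here mark monocytes and macrophages, and were followed in single granulocyte/macrophage progenitors (GMPs) of mice with and without induced BCR-ABL: Klf4, Ccr2, Cx3cr1, Ly86, Mpeg1, Lyz2, Cst3, F13a1, Fn1 and Ly6c2. They were chosen by name, and all 10 had a row among the 46078 gene rows of the count tables. GMPs sit in the marrow above both neutrophils and monocytes. The tables hold 4 sets of 96 wells of sorted cells: BCR-ABL sets 1, 2 and 4, and 1 set labelled control. The BCR-ABL mice were C57Bl/6 animals with the Scl-tTA::TRE-BCR/ABL transgenes, in which the Scl regulatory element drives the transactivator in stem and progenitor cells. Doxycycline at 20 mg/L in the drinking water held the transgene off, and its withdrawal at 5 weeks of age induced it. Marrow was taken 5 to 6 weeks later from bones that were crushed or flushed, enriched for c-Kit, and sorted as lineage-negative, c-Kit+, Sca-1-, CD34+ and FcγR+. The doxycycline dose, age at withdrawal and time of analysis are recorded alike for the control set. The labels name this comparison set only as control, and do not give its genotype or say whether sets are separate animals. Full-length SMART-seq2 cDNA was sequenced, and reads were counted per gene.

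The filter asked for 50000 gene reads and 1000 detected genes in a well, and kept 76, 61 and 92 wells in BCR-ABL sets 1, 2 and 4, and 94 in Control. Median depth of a kept cell was 1649313, 2084608, 1385349 and 1200639 reads in that order. Levels are CPM, meaning reads per 1e6 on genes, of counts summed over the kept cells of a set. Values per cell come from the 290 cells that could be thinned to an equal 674952 reads, 65, 54, 81 and 90 in the same order. Xist reached 5 CPM in 75 of 76, 0 of 61, 3 of 92 and 94 of 94 kept cells, so BCR-ABL sets 2 and 4 differ from Control in this transcript as well. Control is 1 set, so what is particular to that set and the condition cannot be told apart in any comparison below.

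Monocytes arise from GMPs under the transcription factor Irf8, which acts with PU.1 and upstream of Klf4, while Gfi1 and C/EBPε favour the neutrophil path. A young monocyte carries the chemokine receptor Ccr2 and the surface protein Ly6C, leaves the marrow towards Ccl2, and fills its lysosomes and granules with enzymes used against microbes. Cx3cr1 and much of the macrophage programme come later. In GMPs these transcripts are therefore read at the start of the lineage, and several of them, such as Lyz2 and Cst3, are also made by neutrophil precursors.

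Transcripts of mature macrophages were scarce. Of 16 macrophage genes, 9, 9 and 11 stood under 1 CPM in BCR-ABL sets 1, 2 and 4 and 9 in Control, and the 16 summed to between 120 and 232 CPM with BCR-ABL and 129 in Control. C1qa and C1qc, complement genes of resident macrophages, had 0 reads in all BCR-ABL sets and 79 and 131 in Control. C1qb, Cd5l and Spic, also of resident macrophages, had at most 46, 1 and 4 reads in a BCR-ABL set against 185, 130 and 123. A single Control cell, the same for these 5 genes, gave 83.5 to 100% of their Control reads, while Timd4 had 0 reads in Control and at most 1 in a BCR-ABL set. Fn1, the matrix protein fibronectin that maturing monocytes and macrophages secrete, had 18, 132 and 11 reads in the BCR-ABL sets and 193 in Control, and a single cell gave 83.3% of them in set 1, 98.5% in set 2, all in set 4 and 54.9% in Control. At least 10 Fn1 reads were found in 0 of 65, 1 of 54, 0 of 81 and 2 of 90 cells, where 0 allows up to 4.62% and 3.70%. Fn1 and these 5 resident macrophage genes thus came from a few cells, and nearly all of the latter from 1 Control cell. Other genes of the 16 went the other way. Vcam1 stood at 26.4 to 95.6 CPM in the BCR-ABL sets against 6.48, and Slc40a1 at 23.5 to 73.6 against 11.9. Of the 12 that entered the edgeR fit described below, 8 had a negative log2 fold change and 4 a positive one. Over all genes 45.8% were negative.

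Per kilobase of exon, the Control levels ran from Ly6c2 at 1851 CPM per kb through Cst3 at 724, Lyz2 at 711, F13a1 at 120, Ly86 at 71.9, Mpeg1 at 40.1, Ccr2 at 23.6, Cx3cr1 at 5.72 and Klf4 at 5.18 to Fn1 at 0.118. Means over the BCR-ABL sets gave Ly6c2 1499, Cst3 458, Lyz2 282, F13a1 86.5, Ly86 16.4, Ccr2 16.3, Mpeg1 8.13, Klf4 1.36, Cx3cr1 0.899 and Fn1 0.0373 CPM per kb. Control has no replicate, so its own order carries no error. Ly86 and Ccr2, neighbours in the BCR-ABL order, did not differ beyond the spread of the sets there.

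All 10 genes stood lower in every BCR-ABL set than in Control, which was true of 27.8% of the 20324 genes tested. No gene of the 20324 passed the edgeR test at an adjusted p under 0.05 (0.0%). At an unadjusted p under 0.05, 5 of the 10 were lower (Mpeg1, Lyz2, Cst3, Cx3cr1 and Ccr2), against 3.39% of all genes, and the median log2 fold change of the 10 was -1.48 against 0.05 over all genes. DESeq2 on the same sums called 562 genes, of which 167 were lower (0.822% of those tested), and 4 of the 10 were among these. Ly86, Klf4 and Irf8 stood apart in BCR-ABL set 4. With set 1, 2 or 4 left out, all 10 genes still had a negative log2 fold change, and their median lay between -1.92 and -1.19. In the fit with every set, 45.8% of all genes were negative. A lower sum can come from fewer cells with the transcript or from less of it per cell. The shares of cells below describe the first. For genes that many cells lack, the level in cells with at least 10 reads is given for Mpeg1 only. Summed levels of the 16 neutrophil genes moved the other way, 68020, 64060 and 72160 CPM with BCR-ABL and 57480 without, and 9 of the 15 tested were higher at an unadjusted p under 0.05, against 3.79% of all genes. Whether the balance of neutrophil and monocyte precursors in the gate sets the levels of the 10 genes was not tested.

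**Figure D1:**
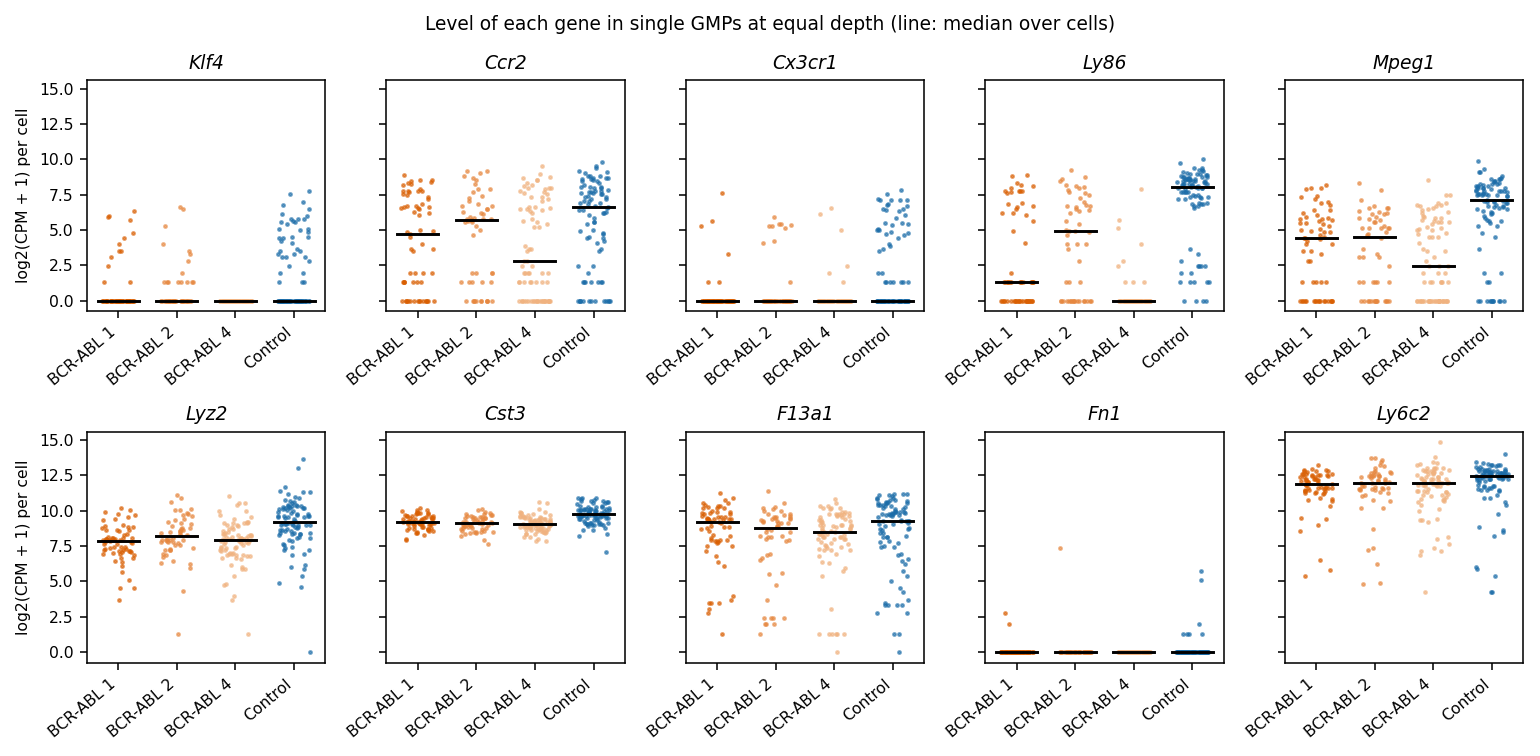
Each point is 1 cell at equal depth (BCR-ABL sets 1, 2 and 4 with 65, 54 and 81 cells, Control with 90), the vertical axis is log2(CPM + 1), and the line is the median over cells. Cst3, Lyz2 and Ly6c2 form 1 cloud in each set, placed lower in the BCR-ABL sets, while Ly86, Ccr2 and Mpeg1 have cells at 0 and cells well above it.

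Klf4, a transcription factor needed for inflammatory monocytes (mm10 chromosome 4, 55527143 to 55532466), stood at 5.06, 7.42 and 0.00709 CPM in BCR-ABL sets 1, 2 and 4 against 15.8 CPM in Control. The value in set 4 is 1 read over 92 cells. Set 4 thus stands apart from the other two, and in set 2 a single cell gave 42.0% of the reads. Cells with at least 10 Klf4 reads made up 10.8, 7.4 and 0.0% of the cells of these sets against 26.7%, and 0 of 81 cells allows a share of up to 3.70%. Its fitted log2 fold change, -1.89 (SE 2.17, adjusted p = 0.918), was well within the spread of the sets.

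Ccr2, the Ccl2 receptor that monocytes need to leave marrow (chromosome 9, 124101950 to 124113557), stood at 109, 120 and 101 CPM against 160. The BCR-ABL sets lay close together, and all were below Control. The log2 fold change was -0.51 (SE 0.17, p = 0.0345, adjusted p = 0.669), and at least 10 reads were found in 53.8, 63 and 43.2% of cells against 72.2%. Only the interval of set 4, 32.2 to 54.7%, ended below that of Control, 61.8 to 81.1% (exact Clopper-Pearson at 95%, which covers counting error only).

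Cx3cr1, the fractalkine receptor of patrolling monocytes and tissue macrophages (chromosome 9, 119901616 to 120069879), stood at 3.23, 6.95 and 1.97 CPM against 25.8. It was rare in all sets, with at least 10 reads in 4.6, 16.7 and 3.7% of cells against 32.2%. At -2.65 (SE 0.70, p = 0.0156, adjusted p = 0.642) its log2 fold change was the most negative of the 10, and in set 1 a single cell gave 51.7% of its reads. The gene model overlaps 5 others, among them Wdr48 and Ttc21a on the opposite strand. The strand setting of the counting is not given in the sources used here, so how reads were assigned where the models overlap is not known. Reads called ambiguous, 6.24% of all, were counted for no gene.

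Ly86, or MD-1, which holds the Toll-like receptor homologue Cd180 at the surface (chromosome 13, 37345208 to 37419036), stood at 75.6, 98.1 and 4.89 CPM against 261. Set 4 was again far below the other two, and 1 of its cells gave 40.9% of its 690 reads. The share of cells with at least 10 reads was 35.4, 59.3 and 4.9% with BCR-ABL and 80% in Control. Median level over single cells was 1.48, 28.9 and 0.0 CPM against 258. BCR-ABL against Control gave a log2 fold change of -2.10 (SE 1.36, adjusted p = 0.825), which moved to -1.56 without set 4 and to -2.66 without set 2. Its partner Cd180 stood at 3.46, 7.30 and 2.59 CPM against 5.97, so the BCR-ABL sets lay on both sides of Control.

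Mpeg1, perforin-2, which punctures bacteria inside phagocytes (chromosome 19, 12460779 to 12465283), stood at 41.6, 36.1 and 27.9 CPM against 174. The BCR-ABL sets lay within 1 narrow range, all far below Control. At least 10 reads were found in 56.9, 51.9 and 43.2% of cells against 82.2%, and all 3 BCR-ABL intervals ended below that of Control. In cells that had at least 10 reads, the median was 50.4, 55.6 and 56.3 CPM against 185. Both the share of cells at this limit and the level in those cells were thus lower. With at least 1 read the shares were 72.3, 74.1 and 65.4% against 87.8%, and only the interval of set 4 ended below that of Control. The log2 fold change was -2.28 (SE 0.26, p = 5.15e-04, adjusted p = 0.594).

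Lyz2, lysozyme M, which cuts bacterial cell walls and is made by monocytes and neutrophils alike (chromosome 10, 117277331 to 117282321), stood at 301, 480 and 333 CPM against 936. Nearly every cell had it: 98.5, 98.1 and 97.5% of cells in the BCR-ABL sets and 98.9% in Control held at least 10 reads. Its difference therefore lay in the level per cell, with medians of 233, 292 and 240 CPM against 581. In log2 terms the fold change was -1.31 (SE 0.28, p = 0.00692, adjusted p = 0.619).

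Cst3, cystatin C, a secreted inhibitor of cathepsins (chromosome 2, 148871722 to 148875692), stood at 613, 575 and 553 CPM against 917. These BCR-ABL sets were the most alike of all members, with a coefficient of variation of 5.30%. Every thinned cell of the 4 sets held at least 10 reads, and median levels per cell were 582, 563 and 544 CPM against 854. The log2 fold change was -0.64 (SE 0.13, p = 0.00541, adjusted p = 0.619).

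F13a1, the A subunit of the clotting enzyme factor XIII (chromosome 13, 36867178 to 37050244), stood at 690, 555 and 505 CPM against 810. The share of cells with at least 10 reads was near equal, 89.2, 83.3 and 90.1% against 87.8%. The log2 fold change was -0.45 (SE 0.22, p = 0.102, adjusted p = 0.768), so the difference was not larger than the test can tell from the spread.

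Ly6c2, whose product is the Ly6C antigen of inflammatory monocytes (chromosome 15, 75108158 to 75111970), was the most abundant of the 10, at 3896, 4526 and 3897 CPM against 5073. Every thinned cell held at least 10 reads. At -0.29 (SE 0.12, p = 0.0689, adjusted p = 0.727) its log2 fold change was the smallest of the 10. Ly6c2 has a near-identical neighbour, Ly6c1, and reads can be split between them only where their bases differ. In the coding sequences of the reference transcripts 387 of 396 bases were identical, with a longest identical run of 188. The first 150 coding bases are shown because they hold 6 of the 9 differences, in capitals:

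Ly6c2: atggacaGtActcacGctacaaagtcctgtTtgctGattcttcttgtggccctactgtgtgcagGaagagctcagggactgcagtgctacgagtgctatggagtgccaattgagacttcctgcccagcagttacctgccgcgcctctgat

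Ly6c1: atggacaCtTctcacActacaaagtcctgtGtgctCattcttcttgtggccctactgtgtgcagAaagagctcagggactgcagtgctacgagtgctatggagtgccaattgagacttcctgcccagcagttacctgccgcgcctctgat

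Counted from 1 at the A of the start codon, with the Ly6c2 base first, the differences were G8C, A10T, G16A, T31G, G36C and G65A in this stretch, and A254G, C327T and A376G after it. Ly6c1 had 17.7, 20.2 and 16.9 CPM with BCR-ABL and 20.9 in Control. Of all genes compared, it was the one most like Ly6c2 across cells, with a Spearman rho of 0.83, 0.84, 0.79 and 0.84 in BCR-ABL sets 1, 2 and 4 and Control. Whether its counts hold reads of Ly6c2 was not tested. Lyz2 and its paralog Lyz1 share 425 of 447 coding bases, and Lyz1 stood at 0.301 CPM or less in every set.

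The genes beside the 10 in the same lineage were read from fixed lists. Of 24 other monocyte genes without Irf8, 21 had a negative log2 fold change (median -0.78), 10 were lower and 1 was higher at p under 0.05 without adjustment, and 0 passed the adjusted test. Over all genes 45.8% had a negative value, 3.39% were lower and 3.79% higher at that p. Csf1r, which senses the growth factor M-CSF, was counted at 97.8, 131 and 50.6 CPM against 297. Ctss, a lysosomal cathepsin that Cst3 inhibits, stood at 17.4, 16.5 and 2.75 CPM against 94. Of the 14 tested ligands, partners and targets of the 10 genes, 3 were lower and 2 higher at that p, with a median of -0.12 against 0.05 over all genes. Ly96, or MD-2, the homologue of Ly86, was lower by the fit (log2 fold change -1.58, SE 0.34, adjusted p = 0.619), and the lipopolysaccharide receptor Tlr4 that it serves was higher with 1.07 (SE 0.22, adjusted p = 0.619). Of 14 tested monocyte regulators 7 were negative and 7 positive: Spi1, which encodes PU.1, was at -0.01 on the log2 scale (SE 0.12), and Gfi1 at 1.49 (SE 0.42, p = 0.0196, adjusted p = 0.646).

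The second question was how each gene went with Irf8 (summed level 259 CPM in BCR-ABL set 1, 422 in set 2, 62.4 in set 4 and 990 in Control). In set 4 a single cell gave 53.9% of the Irf8 reads. Spearman rho with Irf8 was taken over the thinned cells of 1 set at a time, as a description, since cells of a set are not replicates. Ly86 followed Irf8 with rho of 0.67, 0.68 and 0.29 in BCR-ABL sets 1, 2 and 4 and 0.63 in Control. Ccr2 did so with 0.67, 0.53 and 0.17 against 0.56, F13a1 with 0.53, 0.63 and 0.13 against 0.74, and Klf4 with 0.58 and 0.30 in sets 1 and 2 against 0.52. In Ly86, Ccr2 and Klf4 at least 1 BCR-ABL set thus lay above Control, and in F13a1 none did. Set 4, in which 14 of 81 cells had at least 10 Irf8 reads, had low values.

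Values were lower in BCR-ABL sets 1 and 2 for the other abundant genes. Mpeg1 had rho of 0.21, 0.12 and 0.01 against 0.55 in Control. Lyz2 had 0.20, 0.16 and -0.07 against 0.58, Cst3 had 0.08, 0.15 and -0.02 against 0.49, and Ly6c2 had 0.01, 0.20 and -0.03 against 0.47. Over the 7636 genes with at least 10 reads in 25% of the cells of every set, the median rho with Irf8 was 0.07, 0.07, 0.03 and 0.00. The Control value minus the mean of the BCR-ABL sets lay at the 99.8 percentile of these genes for Mpeg1, 99.9 for Lyz2, 99.8 for Cst3, 99.7 for Ly6c2 and 98.7 for F13a1, and at 83.6 for Ccr2. Cx3cr1 had 0.13, -0.02 and 0.23 against 0.29, with few cells above 0. Over the Irf8-positive cells alone, those with at least 10 Irf8 reads, Mpeg1 had 0.01, 0.07 and -0.46 against 0.41 in Control, Lyz2 0.25, -0.03 and 0.05 against 0.50, and Cst3 0.17, 0.01 and -0.27 against 0.43. Ly6c2 had 0.27, 0.03 and -0.29 against 0.24, so Control was not the highest there. Ly86 had 0.42, 0.32 and 0.65 against 0.47 over the same cells, of which set 4 holds 14. F13a1 had 0.40, 0.30 and 0.34 against 0.62, and Ccr2 0.31, 0.32 and 0.00 against 0.40, all below Control.

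The number of genes detected in a cell at equal depth, a sign of RNA quality or content, moved with Irf8 in the BCR-ABL sets, with rho of 0.47, 0.40 and 0.23 against -0.07 in Control. Ccr2 went with that number in the BCR-ABL sets (0.56, 0.62 and 0.58 against 0.01 in Control), as did F13a1 (0.42, 0.37 and 0.30 against 0.03). Lyz2 went against it in all sets, with -0.18, -0.27 and -0.18 against -0.32, and Ly6c2 likewise with -0.31, -0.22 and -0.34 against -0.19. Partial rho with Irf8, holding this number, was therefore added after the data had been seen. It was 0.55, 0.67 and 0.27 against 0.63 for Ly86, 0.55, 0.38 and 0.05 against 0.56 for Ccr2, and 0.42, 0.57 and 0.06 against 0.74 for F13a1. For Mpeg1 it was 0.22, 0.12 and -0.01 against 0.54, for Lyz2 0.33, 0.31 and -0.02 against 0.60, for Cst3 0.13, 0.33 and 0.02 against 0.49, and for Ly6c2 0.18, 0.32 and 0.06 against 0.47. The contrast between these groups of genes was thus smaller in sets 1 and 2, with Ccr2 at 0.38 near Cst3 at 0.33 in set 2, and each of the last 4 genes still had every BCR-ABL set below Control.

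**Figure D2:**
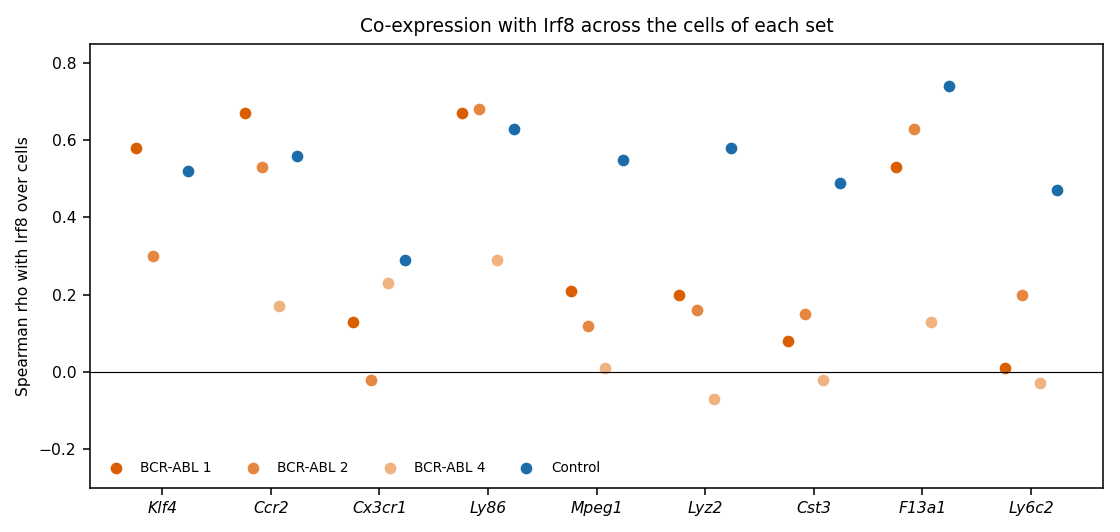
Spearman rho between each gene and Irf8 over the cells of a set (vertical axis), 1 point for each set with a value. Mpeg1, Lyz2, Cst3 and Ly6c2 have Control at 0.47 or above and all BCR-ABL sets at 0.21 or below, whereas Ly86, Ccr2 and Klf4 have at least 1 BCR-ABL set above Control.

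Cells were then split at 10 Irf8 reads, which put 27, 36 and 14 BCR-ABL cells and 79 Control cells in the Irf8-positive class. The cut is a point on a range, and 4, 4, 4 and 6 cells had between 5 and 19 reads. Within the class, Irf8 itself was still lower in BCR-ABL cells, at a mean of 547, 526 and 208 CPM against 1109. Of the 18024 genes tested 0 passed (0.0%). Of the 10 genes 4 were lower at an unadjusted p under 0.05 (Mpeg1, Lyz2, Cst3 and Cx3cr1), against 2.73% of all genes, and 8 had all BCR-ABL sets below Control, against 29.3%. These counts rest on the sums of all reads that enter the fits, while the levels given next are means over thinned cells, in which Fn1 is not below Control in every set.

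The 10 genes divided in this class. Mpeg1 stood at a mean of 51.1, 38.6 and 37.3 CPM in sets 1, 2 and 4 against 196 in Control, a log2 difference of -2.43 (SE 0.26, adjusted p = 0.901). Lyz2 stood at 285, 526 and 294 CPM against 1112 (log2 fold change -1.46, SE 0.40), and Cst3 at 609, 607 and 567 against 978 (-0.75, SE 0.14). The Control mean of Lyz2 was 859 CPM without the 2 cells of highest Lyz2, and its median over all 79 cells was 747. Ly86 stood at 144, 134 and 23.8 CPM against 305 (-1.58, SE 0.99) and Cx3cr1 at 3.57, 5.52 and 7.30 against 29.3 (-2.44, SE 0.49). These lie below Control in each set.

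Ccr2 and F13a1 did not. Ccr2 stood at 174, 147 and 216 CPM against 186, on both sides of Control, with a fitted log2 value of 0.03 (SE 0.21) that turned to -0.24 when the class began at 1 Irf8 read. F13a1 stood at 984, 663 and 699 CPM against 886, with a log2 fold change of -0.13 (SE 0.27). Across cells these genes had the highest mean rho of all pairs of the 10 genes, with 0.73, 0.53, 0.52 and 0.65.

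**Figure D3:**
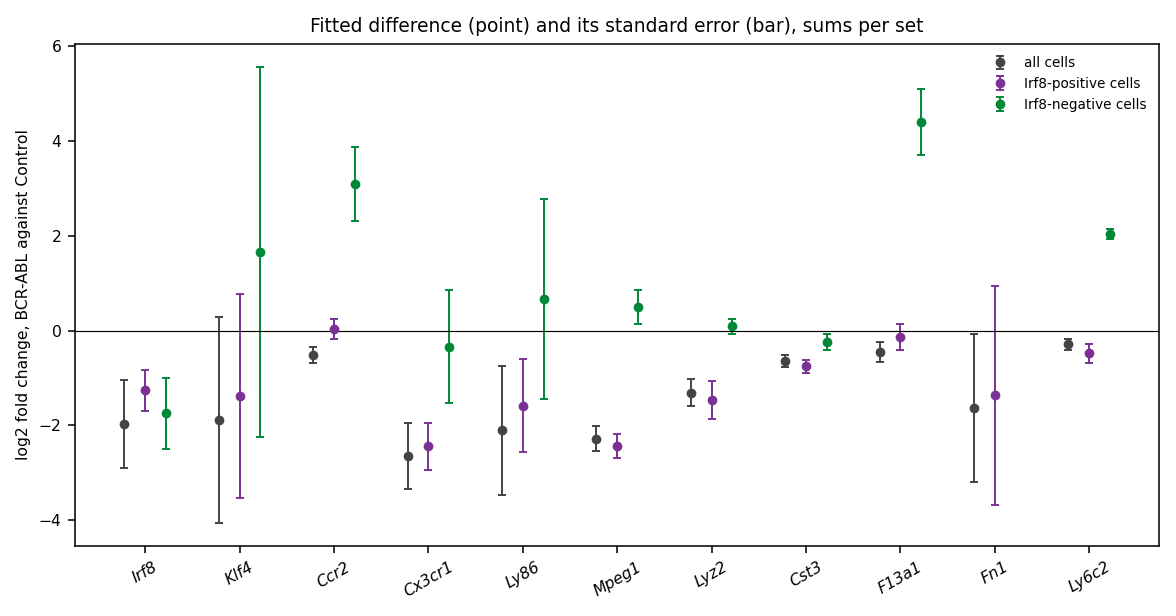
Log2 fold change of BCR-ABL against Control (points) with its standard error (bars) from edgeR fits to sums over all cells, Irf8-positive cells and Irf8-negative cells. In Irf8-positive cells Mpeg1, Lyz2 and Cst3 are as low as over all cells, Ccr2 and F13a1 lie near 0, and in Irf8-negative cells Ccr2, F13a1 and Ly6c2 lie above 0.

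Since Irf8 differs within the class, cells were also binned by their Irf8 level, a view added after the data had been seen. Between 600 and 1200 CPM of Irf8 lay 10, 10 and 1 cells of BCR-ABL sets 1, 2 and 4, pooled here, and 25 Control cells. Their mean Irf8 was 906 CPM in BCR-ABL and 855 in Control. Mpeg1 was at 42.4 CPM in the former and 208 in the latter, Lyz2 at 362 and 865, and Cst3 at 628 and 927. Ccr2 was at 207 CPM against 159 and F13a1 at 897 against 807. By set, F13a1 was at 1152 CPM in the 10 cells of set 1 and at 615 in the 10 of set 2, so the sets lay on both sides of Control, whereas Ccr2 was at 228 and 187 and above it in both. In this bin of near-equal Irf8, Mpeg1, Lyz2 and Cst3 thus stood lower in the pooled BCR-ABL cells and Ccr2 did not, which is a description with no test. From 10 reads to 200 CPM of Irf8, with 26 BCR-ABL and 8 Control cells, Lyz2 was not lower, at 338 CPM pooled (173, 492 and 260 by set) against 325. Mpeg1 was lower there, at 46.2 CPM against 105, and Cst3 stood at 625 against 713.

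Over the whole range of Irf8, from under 10 reads to 1200 CPM and more, Mpeg1 in Control went from 27.6 CPM in the first bin to 239 in the last, Lyz2 from 281 to 1617 and Cst3 from 612 to 1138. Of the 35 Control cells in the last bin 2 held 13230 and 8494 CPM of Lyz2, and without them its mean was 1056 CPM, with Mpeg1 at 229 and Cst3 at 1114. Over the 5 bins of pooled BCR-ABL cells the means lay between 36.8 and 49.6 CPM for Mpeg1, 332 and 490 for Lyz2 and 554 and 628 for Cst3, with 4 cells in the last bin. Ly86 was higher at higher Irf8 in both, from 3.37 to 398 CPM in Control and from 4.04 to 235 in BCR-ABL cells. A window of 200 to 1200 CPM of Irf8 held 20, 22, 5 and 36 cells. Mean Irf8 in it was 658, 610 and 456 CPM against 720, so it was still lower in every BCR-ABL set. Mpeg1 was there at 53.7, 29.5 and 34.4 CPM against 174 and Ly86 at 154, 138 and 66.7 against 265. Ccr2 was there at 167, 188 and 247 CPM against 147, and each BCR-ABL set lay above Control. F13a1 was at 1037, 642 and 1069 CPM against 698, with set 2 below Control.

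**Figure D4:**
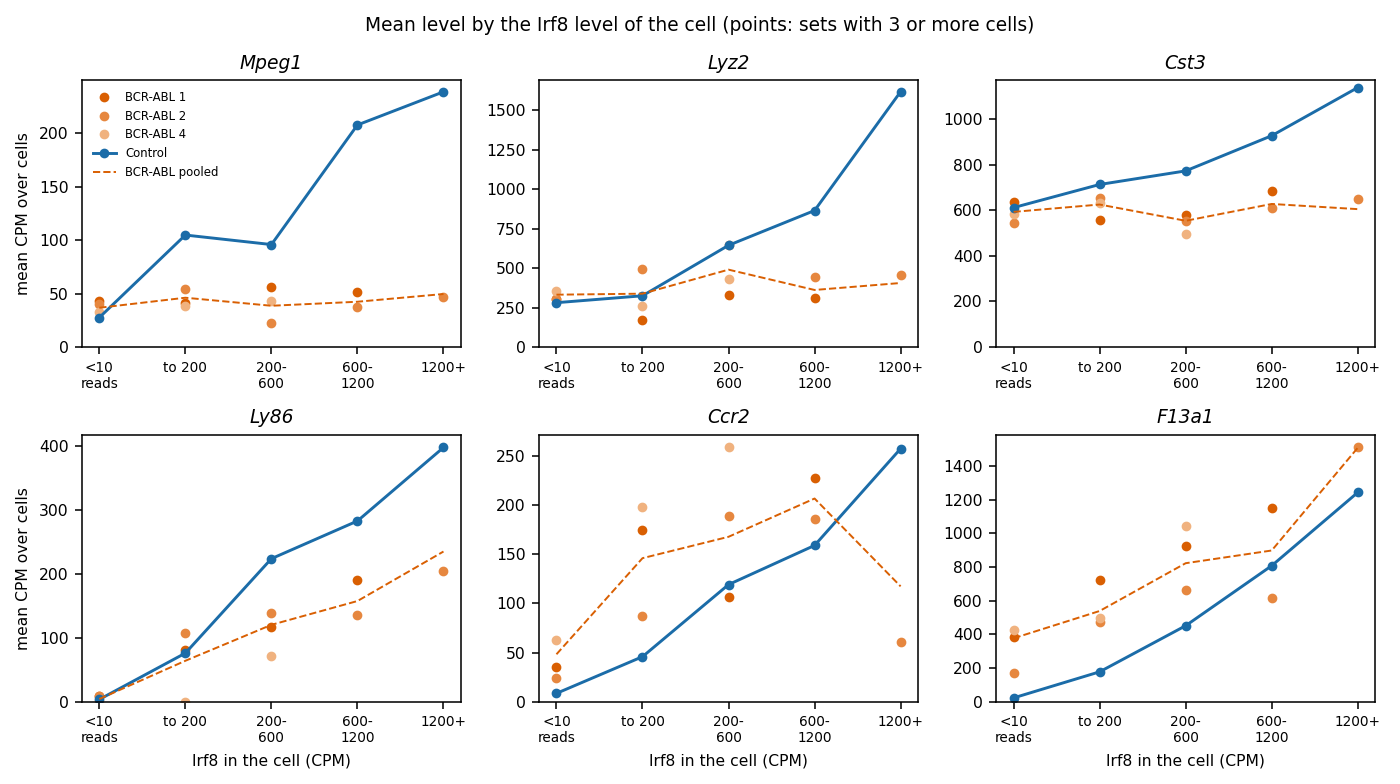
Mean CPM over cells (vertical axis) by the Irf8 level of the cell (horizontal axis, from under 10 reads to 1200 CPM and more), with Control as a line, BCR-ABL sets of 3 or more cells in a bin as points and pooled BCR-ABL cells as a dashed line. In Control, Mpeg1, Lyz2 and Cst3 end higher than they start (Lyz2 at 1617 CPM, or 1056 without 2 cells), in pooled BCR-ABL cells they stay at or below 49.6, 490 and 628 CPM, and Ly86 is higher at higher Irf8 in both.

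The Irf8-negative class held 38, 18 and 67 BCR-ABL cells and 11 Control cells. Of the 17367 genes tested 0 passed (0.0%). Of the 9 of the 10 that were tested, 3 were higher at an unadjusted p under 0.05, against 12.6% of all genes, and 4 (F13a1, Ccr2, Ly6c2 and Mpeg1) had every BCR-ABL set above Control, against 34.4%. These counts again rest on the sums of all reads, in which Lyz2 was at 283, 315 and 327 CPM against 297, and the levels that follow are means over thinned cells. F13a1 stood at 384, 173 and 426 CPM against 21.8 (log2 fold change 4.4, SE 0.70, adjusted p = 0.115), Ccr2 at 35, 23.7 and 62.3 against 8.35 (3.09, SE 0.78, adjusted p = 0.152) and Ly6c2 at 4082, 3808 and 4521 against 1080 (2.04, SE 0.10, adjusted p = 0.115). Mpeg1 stood at 42.7, 40.3 and 32.5 CPM against 27.6, Lyz2 at 303, 303 and 356 against 281, and Cst3 at 634, 543 and 583 against 612.

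These 11 Control cells were not of the same make-up as the BCR-ABL cells of the class. At least 10 reads of Cpa3 or Gata2, a mast cell protease and a factor of the basophil, mast and stem cell paths, were found in 8 of the 11, against 4 of 38, 6 of 18 and 14 of 67. The 8 genes listed as basophil and mast summed to 2366 CPM in them, and to 706, 1563 and 2511 in BCR-ABL sets 1, 2 and 4. These sums were not made up alike. In this class Prg2 had 0 reads in sets 1 and 2, and Prss34 and Fcer1a had 0 in set 4. Over all kept cells Prg2 reached 933 CPM in a BCR-ABL set against 0.573 in Control, and Epx 289 against 0.451. In the BCR-ABL cells with Cpa3 or Gata2, Ly6c2 was at 330, 144 and 1163 CPM and F13a1 at 26.7, 8.4 and 188, against 740 and 19.8 in the 8 Control cells. In those without, Ly6c2 was at 4524, 5639 and 5408 CPM and F13a1 at 426, 255 and 489, against 1986 and 27.2 in the other 3 Control cells. One of the 11, with 6 Irf8 reads, is the cell that held the resident macrophage transcripts, and without it Control stood at 1184 CPM of Ly6c2, 23.9 of F13a1 and 30.4 of Mpeg1. The differences in this class thus rest on a few Control cells of mixed kind, and their part in the result was not tested.

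Whether the BCR-ABL difference itself depended on the class was tested as an interaction, with the set as a block. Of 19374 genes 0 passed (0.0%). Of the 10 genes 5 had a negative coefficient at an unadjusted p under 0.05 (F13a1, Ccr2, Mpeg1, Ly6c2 and Lyz2), against 8.61% of all genes. Their values were -4.45 (SE 0.50), -2.93 (SE 0.57), -2.92 (SE 0.30), -2.53 (SE 0.26) and -1.60 (SE 0.42), with adjusted p between 0.212 and 0.285. The same 11 Control cells enter this test.

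Counting how many of the 10 genes a cell held with at least 10 reads gave means of 5.49, 5.81 and 4.83 in BCR-ABL sets 1, 2 and 4 and 6.82 in Control. Cells with 7 or more made up 27.7, 42.6 and 3.7% of the BCR-ABL sets and 70% of Control. No cell held all 10, and the highest count was 8, 8, 7 and 9. Across cells, the median rho over pairs of the 10 genes was 0.10, 0.16 and 0.08 with BCR-ABL and 0.41 in Control, against 0.02, 0.02, 0.02 and 0.01 over all pairs of the 7636 genes. A rho of 0.4 was reached by 5 of 45, 5 of 45 and 2 of 28 pairs against 25 of 45. Over all pairs of the 7636 genes it was reached by 0.548, 0.857 and 0.244% against 0.0993%. Ly86, Cx3cr1, Klf4 and Fn1 are in too few cells to be among the 7636, so the 2 groups of pairs are not chosen alike. Of the 28 pairs with a value in every set, 23 had each BCR-ABL set below Control, and 5 did not, among them Ccr2 with F13a1 (0.73 in set 1 against 0.65) and Ly6c2 with Mpeg1 (0.43 in sets 2 and 4 against 0.34). The share of all pairs with each BCR-ABL set below Control was not taken. These values are a description with no test.

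**Figure D5:**
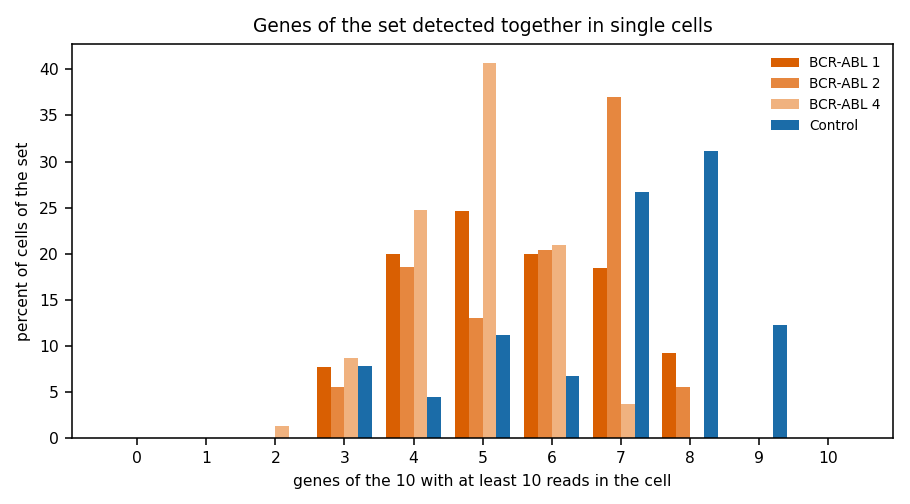
Percent of the cells of each set (vertical axis) by how many of the 10 genes had at least 10 reads in the cell (horizontal axis). Control peaks at 7 and 8 genes, BCR-ABL sets 1 and 4 at 5, and BCR-ABL set 2 at 7.

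By the rule of likeness, 7123 protein-coding genes were ranked by their rho with a score over the 10 genes, averaged over the 4 sets. The 8 highest were Ms4a6c with 0.57, Emb, Tifab and Fcer1g with 0.56, Unc93b1 with 0.54, Rassf4 and Soat1 with 0.50 and Milr1 with 0.49. Fcer1g encodes the signalling chain of Fc receptors and Unc93b1 the chaperone of endosomal Toll-like receptors. Emb, embigin, was also nearest to F13a1, with a mean rho of 0.62, and shared first place for Ccr2 with Milr1 at 0.53. Mpeg1 was nearest to Cybb, the oxidase subunit of phagocytes, and to Nrg1, both at 0.32. Cst3 was nearest to Tyrobp, an adaptor of myeloid receptors, at 0.46.

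Irf8 binds DNA with PU.1 at composite sites, so the promoters were searched on both strands for such letters, from 250 bases before to 50 after each start in RefSeq annotation (GRCm38.p6, the mm10 assembly). Windows of 8 of the 10 genes were searched, 9 windows in all, and those of F13a1 and Fn1 were not used here. GGAANNGAA, the ETS-IRF order, was present in 8.24% of the 32851 windows of all genes and in 1 member, Ccr2. GAANNGGAA, the IRF-ETS order, was present in 8.02% and in 1 member, Cst3, with 2 matches. GAGGAAGT, a PU.1 motif, was present in 3.20% and in 1 member, Ly6c2. GGGNGTGG, a KLF motif, was present in 17.6% and TTGCGNAA, a C/EBP motif, in 0.798%, and neither was in any of the 8 genes searched. The stretches that hold a match before the start, for Ly6c2 its first start, are shown with the match in capitals. They are shown as letters only and not as sites. They contrast a gene that went with Irf8 in BCR-ABL sets 1 and 2 (Ccr2) with genes that did so less (Cst3, Ly6c2). They are Ccr2 chr9:124101980-124102012 (plus strand), Cst3 chr2:148875639-148875757 and Ly6c2 chr15:75112060-75112091 (minus strand).

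Ccr2: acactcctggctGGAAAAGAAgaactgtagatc

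Cst3: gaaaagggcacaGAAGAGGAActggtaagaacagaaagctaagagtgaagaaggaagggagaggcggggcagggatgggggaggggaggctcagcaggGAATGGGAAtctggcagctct

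Ly6c2: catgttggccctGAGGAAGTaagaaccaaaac

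Each order of the composite was found in 1 of the 8 genes searched, which is near its share of all windows, 8.24 and 8.02%. Neither order was in the windows of Ly86 and Klf4, which also went with Irf8 in BCR-ABL sets 1 and 2. Whether these letters bear on the rho with Irf8 was not tested.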

How the data were processed

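Single GMPs from 4 sets of 96 wells were measured by SMART-seq2. The deposited values are raw counts of reads per Ensembl gene, which the authors made with GSNAP and HTSeq 0.5.3p3 on mm10, per the submitters' processing notes. Annotation release and strand setting: not given in the sources used here. Gene rows took 44.9% of the reads, unaligned reads 40.9%, no feature 7.67%, ambiguous 6.24% and spike-ins 0.26%; rows naming no gene stayed out of library sizes and tests. Symbols were matched for 45143 of 46078 gene rows.

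Of 384 wells 323 were kept, with 50434 to 4758711 reads on genes (121378632 to 140995697 per set). No doublet caller was run, since wells were sorted to 1 cell. For shares, correlations and Irf8 classes cells were thinned to 674952 reads, the 10 percentile, leaving out 33. Sums over each set's cells entered edgeR 4.0.16 (R 4.3.3; quasi-likelihood F test, TMM, filterByExpr), 3 BCR-ABL against 1 Control, and p was adjusted by Benjamini and Hochberg over all genes tested. The fits have 2 residual degrees of freedom, so the single Control sum is taken to vary as the BCR-ABL sums do, and p-values measure only the spread between these sets, which may be technical. SE is the absolute log2 fold change over the root of F. The edgeR fits over all cells and of the interaction were tested on simulated data. Both were required to pass only at a simulated spread below that of these data, so this does not speak for recovery at the real spread. Reads carry no molecular identifiers, so exact intervals cover counting error only. Alternatives were DESeq2 1.42.0, limma 3.58.1, other scalings, filters, class limits and left-out sets.

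The members, lists and tests were chosen with earlier results of these data known. Named are the 10 genes, Irf8, genes of the fixed lists, the 8 protein-coding genes most like the members' score and the 2 most like each member. Which list genes to name was chosen after their values were seen.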

Additional observations from a re-analysis of the deposited data

Results flagged for a closer look

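Ly6c2 and Mpeg1 had every BCR-ABL set below Control in Irf8-positive cells and every BCR-ABL set above Control in Irf8-negative cells. Of all genes tested, 29.3% had every BCR-ABL set below Control in Irf8-positive cells. In Irf8-negative cells 34.4% had every BCR-ABL set above Control. The share of genes with both was not taken, so how unusual the pair is was not tested. For Mpeg1 the margin in Irf8-negative cells was small in BCR-ABL set 4, with a sum of 27.13 CPM against 24.71 in Control. The difference between the classes had a log2 value of -2.53 for Ly6c2 (SE 0.26, adjusted p = 0.212) and -2.92 for Mpeg1 (SE 0.30, adjusted p = 0.212), so neither passed the edgeR test. With the class limit at 50 Irf8 reads, Mpeg1 in Irf8-negative cells turned from 0.50 to -0.17. The Control side of the Irf8-negative class is 11 cells, 8 of them with at least 10 reads of Cpa3 or Gata2.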

How the results depend on the processing

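No gene passed an adjusted p under 0.05 by edgeR or limma under any alternative run, while DESeq2 called 562 genes over all cells, 255 in Irf8-positive cells, 2584 in Irf8-negative cells and 1467 for the interaction. The median log2 fold change of the 10 genes was -1.48 over all cells, and -1.92 to -1.19 when a BCR-ABL set was left out. In Irf8-negative cells it was 0.66, and 1.52 with the class at 50 Irf8 reads and 0.35 to 1.22 with a set left out. For the interaction it was -1.72, with -1.94 by DESeq2 and -2.37 to -1.60 with a set left out. In Irf8-positive cells it was -1.37, and -1.76 to -0.79 with a set left out. Signs turned for Ccr2 in Irf8-positive cells (-0.24 with the class at 1 read, -0.03 to 0.13 with a set left out), for Mpeg1 (-0.17) and Irf8 (0.40) in Irf8-negative cells with the class at 50 reads, for Cx3cr1 in Irf8-negative cells (-1.14 to 0.11 with a set left out) and for the Klf4 interaction (-4.29 to 2.14, the latter without BCR-ABL set 2). The cause was not tested. Over all cells 105 of 109 alternative values of single genes kept their direction and side of the threshold, and the other 4 were DESeq2 calls.

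The median difference in the share of cells was -10.2 points, and -2.8 when 50 reads were asked for. With 1 read the Lyz2 difference was 1.1 points, and with 50 reads that of Fn1 was 0.6. The Irf8-positive class at 50 reads, and the Irf8-negative class and interaction at 1 read or the interaction at 50, were not run because a set had fewer than 10 cells in a class. No paired analysis was possible because the groups compared share fewer than 2 replicate numbers. With 1 Control set and 2 residual degrees of freedom, a difference as large as that of Mpeg1 did not pass over all genes. Cells left out for depth number 20, 35, 4 and 2, and Klf4, Cx3cr1 and Fn1 rest on few cells in every BCR-ABL set.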

Other observations

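The 59 wells left out of the BCR-ABL sets and the 2 left out of Control held few reads on genes, with medians of 11350, 5921 and 7350 in BCR-ABL sets 1, 2 and 4. Their reads held 978, 986 and 99 of Ly6c2 and 181, 139 and 15 of Cst3. Ly6c2 and Cst3 were thus found in wells of low depth as well.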
